A study of Mus musculus with 6 samples.

Results

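The nuclear-encoded subunits of oxidative phosphorylation were measured in E13.5 mouse cortex with and without Ybx1, an RNA-binding protein that reads 5-methylcytosine in mRNA. The gene set was proposed with earlier results of these data known, and its members were then taken by symbol, with no measured value in the rule: names starting with Ndufa, Ndufb, Ndufc, Ndufs, Ndufv, Uqcr, Cox4 to Cox8 or Atp5, and Sdha to Sdhd, with the 8 Ndufaf assembly factors removed. This gave 83 of the 17348 genes listed, of which 38 belong to complex I, 4 to complex II, 8 to complex III, 16 to complex IV and 17 to complex V. Of them, 80 passed the filter on low counts, among 13340 genes tested. Ndufb4b, Cox4i2 and Cox7a1 did not pass. Subunits with other symbols fall outside the rule, such as Cyc1 of complex III, which was counted with the electron carriers below.

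The comparison was between 3 libraries labelled WT and 3 labelled cKO, all from cortex at E13.5 and all from total RNA. The study's methods state that mRNA was purified before the libraries were built. According to the study, the cKO embryos carry Nestin-Cre and floxed Ybx1 alleles and the controls are littermates with a functional gene, called either floxed without Cre or wild type. Nestin-Cre acts in neural progenitors and their progeny, so vessels, blood and meninges in the dissected tissue keep the gene. The study describes 3 independent replicate experiments, and the series text speaks of 3 sequencing batches without saying which library each holds, so batch and library value cannot be told apart.

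In complexes I, III, IV and V, proteins encoded in the nucleus join one or more encoded by mitochondrial DNA, whereas complex II is encoded by nuclear genes throughout. Complexes I and II pass electrons from NADH and succinate to ubiquinone, complex III passes them to cytochrome c and complex IV to oxygen, while complexes I, III and IV pump protons. Complex V, the ATP synthase, uses the proton gradient to make ATP. Early cortical progenitors are known to rely largely on glycolysis, and mitochondrial respiration gains weight as neurons differentiate.

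The libraries held 15907491 to 16282929 estimated counts, with 15685 to 16309 genes detected. Ybx1 gave 1021, 528 and 1220 CPM (TMM-scaled counts per library size) in WT replicates 1 to 3, and 83.1, 117 and 147 in cKO replicates 1 to 3. The library labelled WT replicate 2 held less of the deleted gene than either other WT library and more than any cKO library. Ybx1 itself was lower by a log2 fold change of -3.00 (SE 0.33) with an adjusted p of 0.128 in edgeR's quasi-likelihood test. The 10 cortical markers summed to 3502 to 4500 CPM in every library. Transcripts of meninges and epidermis stood apart in cKO replicate 3, where the 8 meninges markers summed to 530 CPM, against 8.74 to 17.0 in the other libraries, and the 8 epidermis markers to 294 CPM, against 11.5 and 10.9 in cKO replicates 1 and 2. Of the meninges and epidermis markers, Lum, Ogn, Krt5, Krt14 and Krt15 were at 0 in at least 1 library. The 8 erythroid markers summed to 690, 608 and 475 CPM in WT and 824, 687 and 540 CPM in cKO. These groups overlapped, all 7 tested markers had a positive log2 fold change and 0 had an unadjusted p under 0.05, and the part of blood transcripts in the values below was not tested.

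The subunit genes were among the abundant transcripts of the E13.5 cortex. Together they took 2.64%, 2.95% and 2.88% of all TPM (a level per transcript length) in WT replicates 1 to 3, and 2.87%, 3.01% and 3.01% in cKO replicates 1 to 3. The median tested member had a mean level of 242 TPM, and 70 of the 80 exceeded 100 TPM. By complex, the ATP synthase held 39.3% of the members' TPM, complex IV 26.2%, complex I 24.6%, complex III 7.55% and complex II 2.31%.

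Within each complex, levels spread unequally. Atp5md, the DAPIT subunit of the ATP synthase membrane part, had the highest mean level of all members, at 1465 TPM (range over the 6 libraries 1336 to 1557). Atp5b, the catalytic beta subunit, followed at 1342 TPM (1294 to 1393). The highest members of the other complexes were Cox7c at 1148 TPM, Ndufa3 at 696, Uqcrh at 446 and Sdhb at 217. The highest and lowest tested members of a complex differed by 1.98-fold in complex II, 4.80-fold in complex V, 5.90-fold in complex III, 23.7-fold in complex I and 266-fold in complex IV. The wide range in complex IV came from its tissue-restricted isoforms, described below. TPM of very short transcripts rests on few counts and a short effective length: Atp5md reached its level with 67.0 CPM in WT, whereas Atp5b had 999 CPM.

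**Figure D1:**
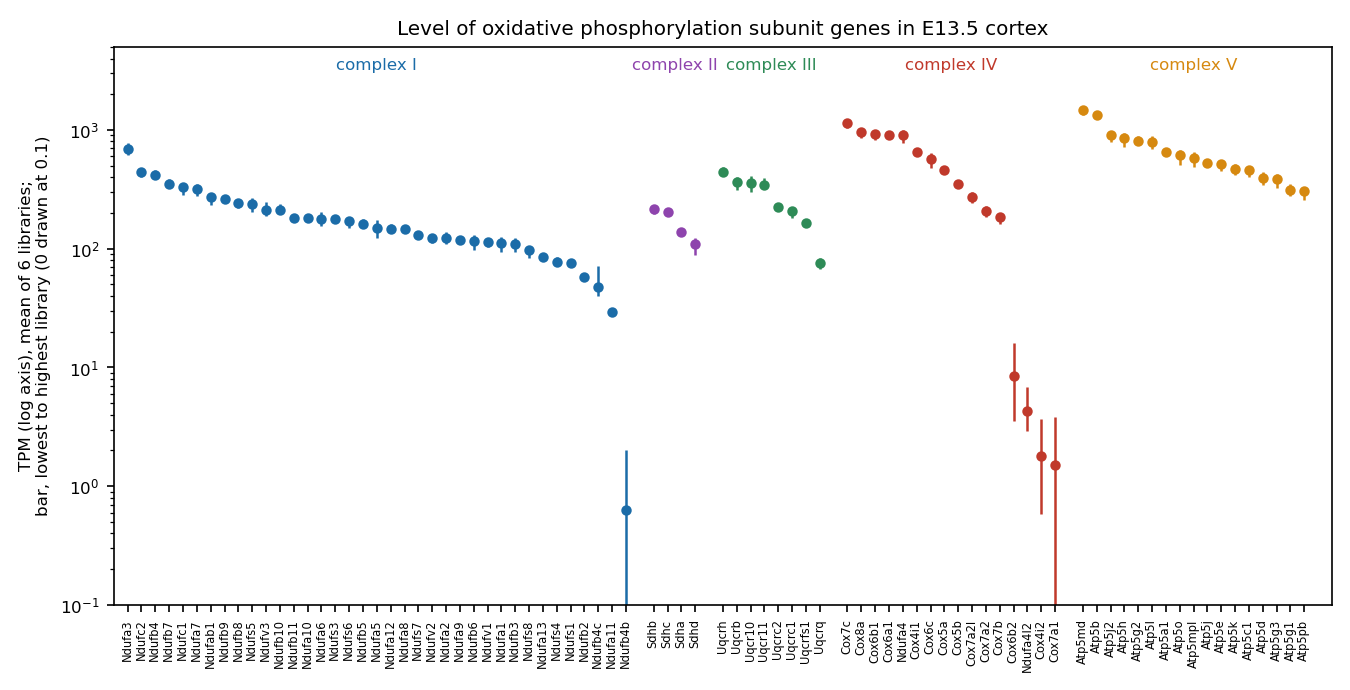
Mean level of 82 of the 83 subunit genes in TPM on a log axis, grouped by complex and sorted within it; bars run from the lowest to the highest of the 6 libraries. Most genes lie above 100 TPM, and the lowest points are Cox7a1, Cox4i2, Ndufa4l2 and Cox6b2 in complex IV and Ndufb4b in complex I.

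The genes lie apart in the genome. All 83 were found in RefSeq for GRCm38.p6, the assembly whose base build the submitters' processing notes name, and they were spread over 19 chromosomes, with at most 7 on 1 of them (chromosome 7). Their promoters were searched for letters of known activators. NRF1, the ETS factor GABP and YY1 are known activators of respiratory genes, and their core letters were searched on both strands in RefSeq windows from 250 bases before to 50 after a transcription start. Such windows were at hand for 68 members, 73 windows in all. The NRF1 letters GCGCANGC stood in 32.9% of the members' windows, compared with 18.8% of the windows of all tested genes and 15.9% of all windows. The ETS letters CCGGAAG stood in 23.3%, against 16.4% and 13.8%, and the YY1 letters AAGATGGCG in 9.59%, against 2.76% and 2.25%. At least 1 of the 3 was present in 52.1% of the members' windows and in 33.1% of those of tested genes, so many members' windows held none. These shares were not tested. A match describes these letters only and is not a measured site.

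The 250 bases before the start are shown for 4 of the 9 genes whose cKO libraries all lay above the WT libraries (below), and for Atp5g2, whose groups overlapped, with the matched letters in capitals. The windows lie at chr5:115348959-115349208 (minus strand, Cox6a1), chr15:82354292-82354541 (minus, Ndufa6), chr2:174464102-174464351 (minus, Atp5e), chr17:31519865-31520114 (plus, Ndufv3) and chr15:102671048-102671297 (minus, Atp5g2), all in GRCm38.p6.
Cox6a1: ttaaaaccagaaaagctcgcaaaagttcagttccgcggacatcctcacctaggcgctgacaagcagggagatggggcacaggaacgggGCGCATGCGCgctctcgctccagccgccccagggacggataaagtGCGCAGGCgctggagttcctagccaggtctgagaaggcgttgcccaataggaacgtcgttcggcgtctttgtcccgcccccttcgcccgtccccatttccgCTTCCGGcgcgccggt
Ndufa6: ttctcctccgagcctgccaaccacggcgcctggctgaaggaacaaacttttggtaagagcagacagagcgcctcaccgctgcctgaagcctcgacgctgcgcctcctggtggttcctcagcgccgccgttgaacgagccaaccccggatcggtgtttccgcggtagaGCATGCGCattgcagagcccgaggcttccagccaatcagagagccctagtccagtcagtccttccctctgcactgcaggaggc
Atp5e: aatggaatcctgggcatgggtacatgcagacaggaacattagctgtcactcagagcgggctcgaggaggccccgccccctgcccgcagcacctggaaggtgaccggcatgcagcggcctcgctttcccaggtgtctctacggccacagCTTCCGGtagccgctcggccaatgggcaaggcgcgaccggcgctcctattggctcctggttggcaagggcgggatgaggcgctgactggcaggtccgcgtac
Ndufv3: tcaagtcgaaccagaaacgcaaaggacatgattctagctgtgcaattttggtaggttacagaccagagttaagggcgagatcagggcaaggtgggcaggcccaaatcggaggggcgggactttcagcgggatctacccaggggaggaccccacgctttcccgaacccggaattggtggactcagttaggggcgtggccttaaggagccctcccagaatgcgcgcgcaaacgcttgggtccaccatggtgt
Atp5g2: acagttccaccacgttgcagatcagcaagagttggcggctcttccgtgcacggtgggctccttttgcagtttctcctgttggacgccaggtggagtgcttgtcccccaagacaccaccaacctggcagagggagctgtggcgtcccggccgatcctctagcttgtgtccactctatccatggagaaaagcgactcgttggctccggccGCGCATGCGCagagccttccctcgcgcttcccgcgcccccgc
The first capital run of Cox6a1 and the run of Atp5g2 are the same palindrome-like sequence, in which the NRF1 letters were found on both strands, overlapping each other. The second run of Cox6a1 and the run of Ndufa6 are single NRF1 matches, and the last run of Cox6a1 and the run of Atp5e are ETS matches on the other strand. No match was found in the stretch shown for Ndufv3. Of the 9 genes whose groups did not overlap, 8 had a window. The 250 bases before the start held a match in 3 of them (Cox6a1, Ndufa6 and Atp5e) and none in 5 (Ndufv3, Ndufb8, Ndufb10, Atp5g1 and Atp5g3).

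No subunit gene changed between genotypes at an adjusted p under 0.05, and most lay slightly higher in the cKO libraries. Of the 80 tested members, 74 (92.5%) had a positive log2 fold change, cKO over WT, against 50.8% of all 13340 tested genes. The median was 0.09, that is 6.36% higher, against 0.0019 for all genes. Values ran from -0.16 for Cox7a2l to 0.76 for Cox6b2, and 78 members lay within 0.3 of 0. In bulk tissue, a change in the number of cells of a type and a change in RNA per cell cannot be told apart.

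By edgeR's quasi-likelihood test, 0 of 80 members passed an adjusted p of 0.05, as did 0% of all tested genes, and the lowest adjusted p of a member was 0.99995. DESeq2 and limma-voom called 0 as well. At an unadjusted p under 0.05, 3 members were higher (3.75%, against 1.75% of all genes tested) and 0 were lower (against 1.81%), and DESeq2 and limma-voom gave the same 3 and 0. The 95% interval of the log2 fold change included 0 for 77 members, with a median half-width of 0.23. The 3 cKO values all lay above the 3 WT values for 9 members (11.2%, against 4.21% of all genes tested) and all below for 0 (against 4.83%).

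The direction was the same across the complexes. In complex I, 36 of 37 tested members were on the positive side with a median log2 fold change of 0.10. All 8 of complex III lay there (median 0.11) and all 4 of complex II (median 0.08), as did 15 of 17 of complex V (median 0.08) and 11 of 14 of complex IV (median 0.07). Within complex I, the 7 core subunits that carry the flavin and iron-sulfur clusters had a median of 0.06 and the 30 tested accessory subunits one of 0.10. The median transcript length, relative to the median tested gene, was 0.446 for the core and 0.141 for the accessory subunits. The part of length in these medians was not tested, nor were the differences between complexes.

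**Figure D2:**
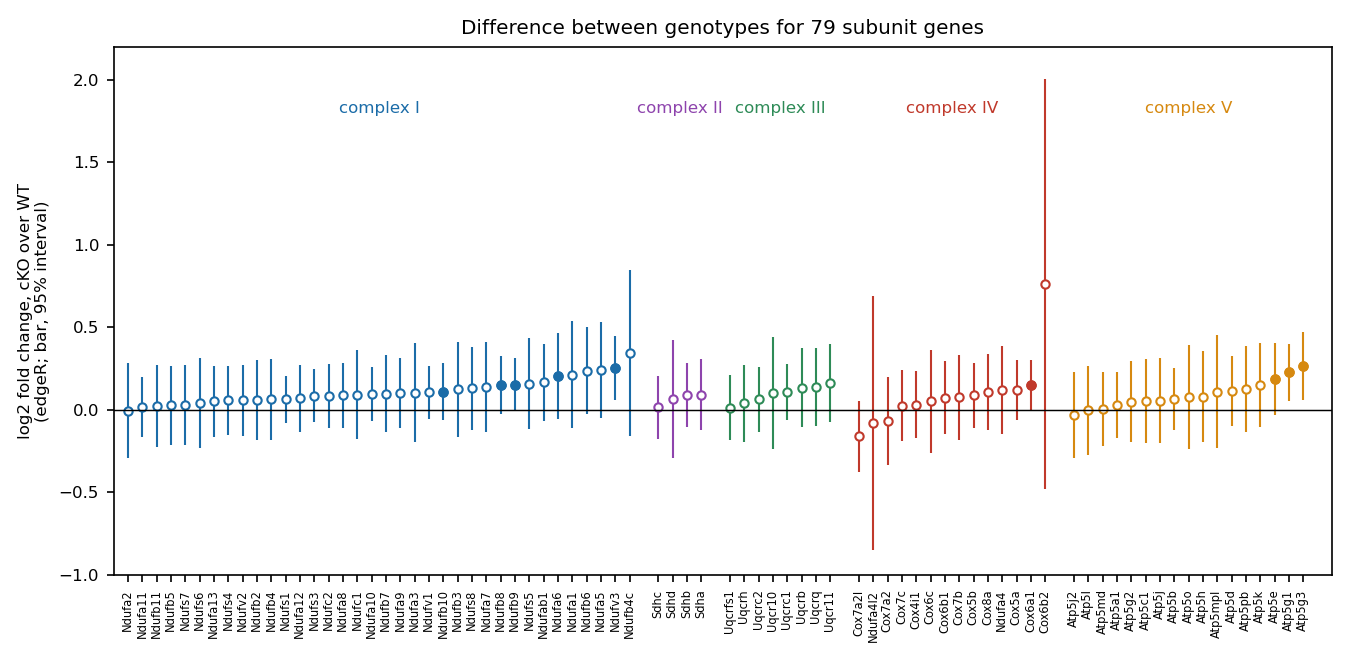
Log2 fold change (cKO over WT, edgeR) of 79 of the 80 tested subunit genes by complex, with 95% intervals as bars; filled points are the 9 genes whose 3 cKO libraries all lie above the 3 WT libraries. Of the points shown, 73 lie above 0, and all bars except those of Ndufv3, Atp5g1 and Atp5g3 cross it.

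The size of the shift depended on single libraries. WT replicate 1 was the lowest of the 6 libraries for 65 of the 80 members, whereas it was the lowest for 21.3% of the other genes. Relative to each gene's mean over the 6 libraries, the members' median log2 deviation was -0.20 in WT replicate 1, 0.06 in the library labelled WT replicate 2 and -0.01 in WT replicate 3, and -0.04, 0.12 and 0.07 in cKO replicates 1 to 3. Their summed level was 6101, 7186 and 6856 CPM in WT and 6630, 7417 and 7151 in cKO. The library labelled WT replicate 2 thus lay above cKO replicates 1 and 3, and the groups overlapped. Each cKO sum lay above the WT sum of the same replicate number, though the numbers were not taken as pairs. Without WT replicate 1 the members' median log2 fold change was 0.026, against 0.010 for all genes tested, and 48 of 80 were positive.

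Other libraries moved the median as well. It was 0.052 without cKO replicate 2, with 63 members positive and none at an unadjusted p under 0.05, against 2.46% of all genes. It was 0.14 without cKO replicate 1, with 10 members higher at an unadjusted p under 0.05, where 4.23% of all genes tested were higher at that p. It was 0.14 without the library labelled WT replicate 2, with 8 members and 1.44% of all genes. Without cKO replicate 3, the library with meninges and epidermis transcripts, it was 0.070 with 70 members positive and 2 at that p, against 1.03% of all genes. With that library and the one labelled WT replicate 2 both left out, it was 0.14 and 1 member, Cox5a, had an unadjusted p under 0.05, against 0.787% of all genes. In the settings of this paragraph the median of all genes tested lay between -0.0028 (without cKO replicate 2) and 0.011 (without cKO replicate 1).

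**Figure D3:**
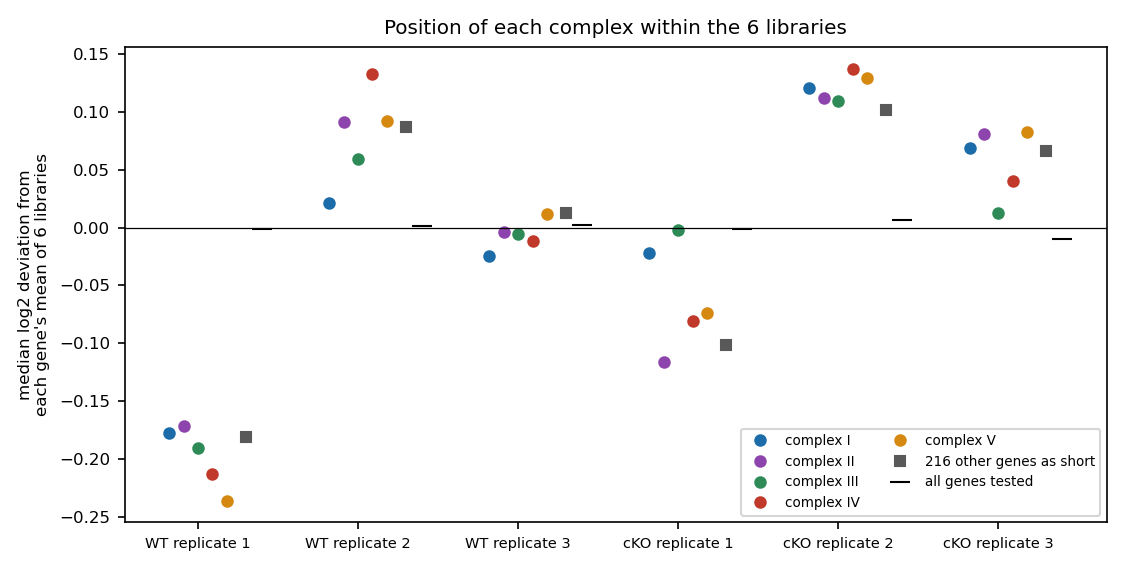
Median log2 deviation of each complex from each gene's mean over the 6 libraries (circles), with 216 other genes no longer than the median member (squares) and all tested genes (dashes). All 5 complexes and the short genes lie lowest in WT replicate 1 and highest in cKO replicate 2.

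Transcript length moved with this pattern. Subunit mRNAs are short: the median member had 0.147 times the effective length of the median tested gene, as the ratio of counts to TPM gives it, and 64 of 80 members fell into the shortest of 10 equal length classes of tested genes. The 1270 other genes of that class had a median log2 fold change of 0.054, with 68.3% positive, and the median fell in every further class to -0.057, with 29.2% positive, in the longest. The 216 other genes no longer than the median member had a median of 0.060 and a median deviation of -0.18 in WT replicate 1. With a correction for length in each library, chosen after the data were seen, the members' median was 0.038, with 62 of 80 positive, against 0.0087 for all genes.

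**Figure D4:**
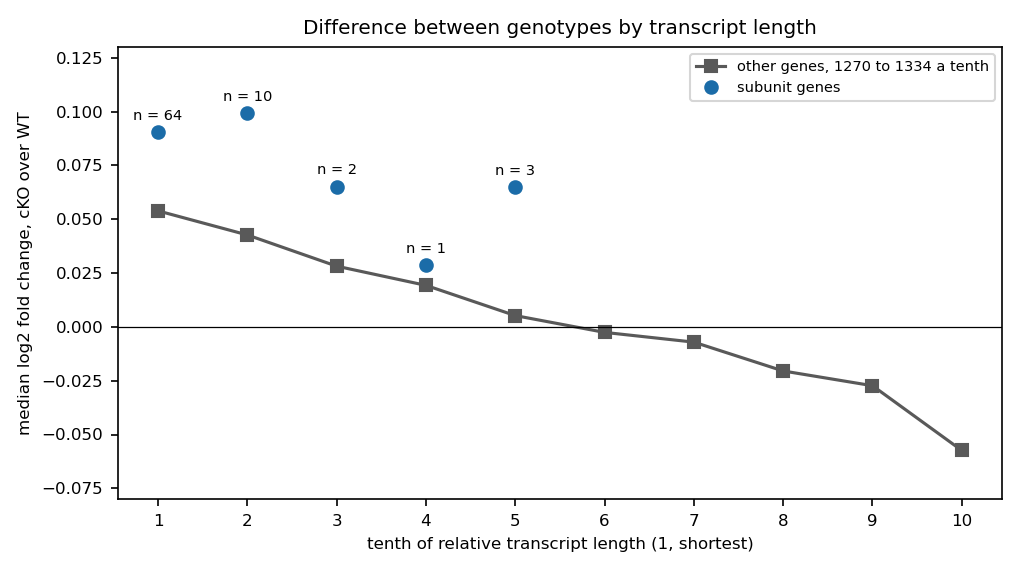
Median log2 fold change (cKO over WT) in 10 classes of relative transcript length (1, shortest), for subunit genes (circles, with their number) and for all other tested genes (squares). The other genes fall from 0.054 in the shortest class to -0.057 in the longest, and the 64 subunit genes of the shortest class have a median of 0.090.

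The 7 core subunits of complex I lay close together between genotypes. Ndufs1, the largest of the iron-sulfur proteins, gave 85.8, 90.03 and 86.4 CPM in WT and 87.7, 93.5 and 93.1 CPM in cKO (log2 fold change 0.06, SE 0.06). Ndufv1, which binds NADH and the flavin, gave 68.5, 72.5 and 66.3 CPM against 71.4, 79.0 and 72.7 (0.11, SE 0.07). In both genes the library labelled WT replicate 2 lay within the cKO range. The largest log2 fold change of the 7 was 0.13 (SE 0.11) for Ndufs8, an iron-sulfur protein of the connecting part. Ndufs8 had its lowest value, 20.7 CPM, in WT replicate 1, whereas its other libraries lay between 25.1 and 27.7 CPM.

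Among the accessory genes of complex I, Ndufv3 differed at an unadjusted p under 0.05. It encodes an accessory subunit of the NADH-oxidising module. Its level was 28.9, 30.5 and 31.9 CPM in WT and 34.4, 38.3 and 36.3 CPM in cKO. The groups did not overlap, and the log2 fold change was 0.25 (SE 0.08, unadjusted p = 0.0167, adjusted p = 0.99995, edgeR). It ranged from 0.21 to 0.30 as each library was left out.

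Ndufa6, an accessory subunit of the LYR-motif family, gave 19.8, 24.2 and 23.4 CPM in WT and 24.9, 28.6 and 24.3 CPM in cKO (log2 fold change 0.21, SE 0.11). Its highest WT value, in the library labelled WT replicate 2, and its lowest cKO value were nearly equal. Ndufb8, Ndufb9 and Ndufb10, accessory subunits of the proton-pumping membrane arm, also had no overlap. Ndufb10 gave 37.6, 38.9 and 39.5 CPM against 43.8, 40.8 and 40.6 (log2 fold change 0.11, SE 0.07). Ndufb8 gave 47.2, 46.1 and 43.7 CPM against 47.4, 52.6 and 52.2 (0.15, SE 0.08). Ndufb9 gave 46.7, 50.3 and 49.3 CPM against 52.8, 56.5 and 53.4 (0.15, SE 0.07). In these genes cKO exceeded WT by 7.93% to 15.3%, and the nearest libraries of the groups lay close together.

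At the ends of complex I stood Ndufb4c and Ndufa2. Ndufb4c had the largest log2 fold change of the complex, 0.35 (SE 0.22), with 3.77, 4.09 and 4.56 CPM in WT and 6.86, 4.70 and 4.22 CPM in cKO. The value came from cKO replicate 1, and the groups overlapped. Ndufb4, Ndufb4b and Ndufb4c are similar copies between which the counting could have divided reads. Ndufb4b had 3.1 counts in cKO replicate 2, 2.6 in WT replicate 3 and 0 in the other libraries. Ndufa2, an accessory subunit near the NADH module, was the only tested member of complex I on the negative side, with a log2 fold change of -0.0036 (SE 0.12).

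Complex II, which is also the succinate dehydrogenase of the citric acid cycle, showed little difference. Its flavoprotein Sdha gave 148, 176 and 171 CPM in WT and 160, 188 and 181 CPM in cKO (log2 fold change 0.09, SE 0.09). Its iron-sulfur protein Sdhb gave 74.6, 89.6 and 76.4 CPM against 81.7, 87.4 and 87.1 (0.09, SE 0.08). Sdhc, a membrane anchor, had the lowest value of the complex, 0.02 (SE 0.08). For Sdha and Sdhb the library labelled WT replicate 2 lay within or above the cKO range, and for Sdhc all WT libraries lay within it. In complex III, the small subunit Uqcr11 had the largest log2 fold change, 0.16 (SE 0.10), with 23.9, 25.3 and 26.3 CPM in WT and 27.7, 31.4 and 25.5 CPM in cKO. The Rieske iron-sulfur protein Uqcrfs1 had the smallest, 0.01 (SE 0.08). The core protein Uqcrc2 showed the low value of WT replicate 1, with 149.5 CPM there, 183 and 173 in the other WT libraries, and 174, 179 and 176 in cKO (0.06, SE 0.08).

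In complex IV, Cox6a1, the widely expressed form of subunit 6A, gave 114, 119 and 125 CPM in WT and 129, 138 and 131 CPM in cKO. The groups did not overlap, and the log2 fold change was 0.15 (SE 0.07, unadjusted p = 0.0551, edgeR). Its paralog Cox6a2 was not analysed here. Cox5a, which sits beside the core on the matrix side, gave 83.4, 94.4 and 86.3 CPM against 95.7, 102 and 89.5, and only its library labelled WT replicate 2 lay within the cKO range (0.12, SE 0.08). Cox4i1, the widely expressed form of subunit 4, gave 136, 153 and 141 CPM against 132, 160 and 147 (0.03, SE 0.09), with WT inside the cKO range. The catalytic core of the complex is encoded by mitochondrial DNA and was not analysed here.

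The lowest log2 fold change of all members belonged to Cox7a2l, a factor that joins complexes III and IV into supercomplexes rather than an ordinary subunit. It gave 97.8, 117 and 115 CPM in WT and 89.9, 101.4 and 104 CPM in cKO. WT replicate 1 lay within the cKO range, so the groups overlapped. The log2 fold change was -0.16 (SE 0.09, unadjusted p = 0.122, edgeR), and it stayed negative as each library was left out, between -0.23 and -0.09. Its relative Cox7a2, the widely expressed form of subunit 7A, gave 40.1, 52.5 and 53.0 CPM against 44.4, 47.9 and 46.6 (-0.07, SE 0.12). Here the WT libraries held both the lowest value and the highest values. Without WT replicate 1, both genes were lower in cKO at an unadjusted p under 0.05, as were 1.58% of all genes tested.

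Subunit c of the ATP synthase forms the rotating ring of the membrane part. It is encoded by Atp5g1 (chr11:96072793-96075694), Atp5g2 (chr15:102662868-102671047) and Atp5g3 (chr2:73908447-73912464, all GRCm38.p6), which give the same mature protein after removal of different import sequences. Atp5g3 gave 64.3, 76.4 and 78.8 CPM in WT and 83.6, 91.1 and 89.3 CPM in cKO, and Atp5g1 gave 65.9, 72.8 and 74.4 CPM against 78.3, 85.2 and 86.3. For both genes every cKO library lay above every WT library. The log2 fold change was 0.27 (SE 0.09, unadjusted p = 0.0174, edgeR) for Atp5g3 and 0.23 (SE 0.07, unadjusted p = 0.0157, edgeR) for Atp5g1. Both had an adjusted p of 0.99995. Atp5g2 gave 128, 154 and 146 CPM against 130, 164 and 149, with wide overlap and a log2 fold change of 0.05 (SE 0.11).

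The 3 genes also differed in their share of subunit c mRNA. Atp5g2 held 55.5%, 56.5% and 54.5% of the TPM of the 3 genes in WT, and 50.4%, 54.2% and 51.8% in cKO. Atp5g3 held 23.9%, 24.1% and 25.4% in WT and 27.7%, 25.6% and 26.6% in cKO. Atp5g1 held 20.7%, 19.4% and 20.2% in WT and 21.9%, 20.2% and 21.7% in cKO. For Atp5g2 every cKO share lay below every WT share (the nearest were 54.5% and 54.2%), while the shares of Atp5g1 overlapped. The log2 ratio of Atp5g2 to Atp5g3 counts was 0.99, 1.01 and 0.89 in WT and 0.64, 0.85 and 0.74 in cKO, a difference of -0.22. An exact two-sided permutation test gave p = 0.1, the smallest that 3 against 3 libraries allow, and 0.3 after Benjamini-Hochberg adjustment over the 6 isoform pairs compared. The ratio of Atp5g1 to Atp5g3 differed by -0.04 (exact p = 0.5, adjusted 0.6).

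In the remainder of the ATP synthase, Atp5e, the epsilon subunit of the central stalk, gave 29.0, 35.0 and 33.9 CPM in WT and 35.5, 38.3 and 37.7 CPM in cKO. The groups were apart by less than 1 CPM, and the log2 fold change was 0.19 (SE 0.10). The catalytic beta subunit Atp5b gave 937, 1031 and 1030 CPM against 989, 1091 and 1058 (0.07, SE 0.08), and the alpha subunit Atp5a1 gave 612, 698 and 660 CPM against 623, 708 and 677 (0.03, SE 0.09). Both WT replicates other than the first lay within the cKO range. Atp5o, a subunit of the outer stalk, varied most of these genes between the WT libraries, relative to its level, with 113, 167 and 146 CPM against 136, 154 and 159 in cKO (0.08, SE 0.14). The lowest value of the complex was that of Atp5j2, the membrane subunit f, at -0.03 (SE 0.11).

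**Figure D5:**
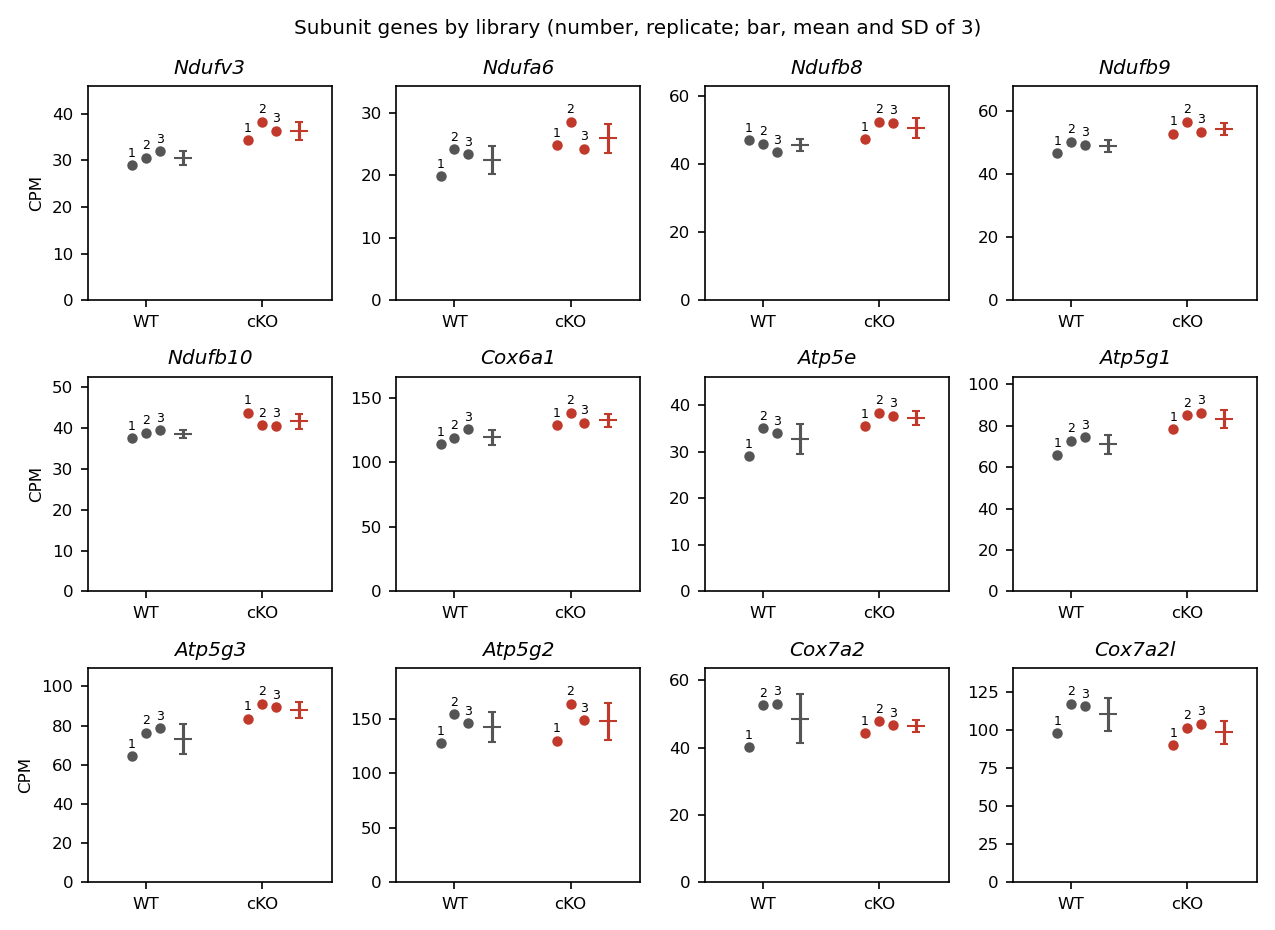
CPM of 12 subunit genes in each library (points, numbered by replicate) with the mean and SD of 3 libraries per genotype, on axes that start at 0. In the first 9 panels every cKO point lies above every WT point, while in Atp5g2, Cox7a2 and Cox7a2l the groups overlap.

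Tissue-restricted isoforms stayed far below their widely expressed partners in all libraries. Of the 8 isoforms listed, 4 had a row (Cox4i2, Cox6b2, Cox7a1 and Ndufa4l2), and Cox6a2, Cox7b2, Cox8b and Cox8c were not analysed here. Cox7a1, the form of heart and skeletal muscle, had 0, 1 and 0 counts in WT and 1, 3 and 2 in cKO, all at or under the 3 counts that mark the floor (0.184 to 0.189 CPM). Muscle markers were also near 0: the 12 with a row summed to 2.94 to 4.65 CPM, and Actc1, Myh8, Ckm, Tnnt3, Tnni1 and Tnnc2 were at 0 in at least 1 library.

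Cox4i2, a form of subunit 4 known from lung and vessel wall and from low oxygen, had 4, 5 and 2 counts in WT and 9, 4 and 13 in cKO. Cox6b2, known from testis, gave 0.565, 1.12 and 0.563 CPM in WT and 0.437, 1.82 and 1.57 CPM in cKO (log2 fold change 0.76, SE 0.54, 95% interval -0.48 to 2.01). Its log2 fold change ran from 0.42 to 1.18 as each library was left out, and it had an unadjusted p under 0.05 without cKO replicate 1. Ndufa4l2, the hypoxia-induced relative of the complex IV subunit Ndufa4, gave 2.14, 0.991 and 1.19 CPM against 1.25, 1.44 and 1.39 (-0.08, SE 0.33). All 3 genes overlapped between groups. The 9 pericyte markers, whose cells can hold Cox4i2 and Ndufa4l2, summed to 168 to 209 CPM in WT and 172 to 206 CPM in cKO, and their part in these values was not tested. The partners were at 143 CPM (Cox4i1), 83.9 (Cox6b1), 48.5 (Cox7a2) and 91.1 (Ndufa4) on average in WT.

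For the log2 ratio of isoform to partner, 3 against 3 libraries allow no exact p under 0.1, so no pair could pass 0.05. The difference, cKO minus WT, was 1.03 for Cox4i2 over Cox4i1 (exact two-sided permutation p = 0.3), 0.51 for Cox6b2 over Cox6b1 (exact p = 0.5) and -0.14 for Ndufa4l2 over Ndufa4 (exact p = 0.9). With each library left out, it ran from 0.71 to 1.53, from 0.16 to 1.10 and from -0.49 to 0.28 for these pairs. The ratio of Cox7a1 to Cox7a2 rests on at most 3 counts a library and is given no fold. After adjustment over the 6 pairs the lowest p was 0.3.

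The other genes of the pathway were described from lists. Of 50 assembly factors, which build the complexes without staying in them, 49 were tested. Their median log2 fold change was -0.0083, with 23 positive and 26 negative, and 0 passed the adjusted p, with 2 higher and 2 lower at an unadjusted p under 0.05 (of all genes tested, 1.75% and 1.81%). Tmem126a, an assembly factor of complex I, gave 16.4, 16.9 and 15.6 CPM in WT and 18.4, 22.8 and 20.6 CPM in cKO (0.34, SE 0.11). Sdhaf4, which helps to build complex II, gave 7.98, 8.06 and 7.88 CPM against 9.67, 9.97 and 9.41 (0.28, SE 0.11).

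Cox15, an enzyme of haem A synthesis, gave 42.8, 45.2 and 46.3 CPM in WT and 38.5, 38.5 and 39.0 CPM in cKO (-0.21, SE 0.07). Sco2, a copper chaperone of complex IV, gave 6.53, 5.76 and 6.12 CPM against 5.12, 4.45 and 4.34 (-0.40, SE 0.15). In these 4 genes the groups did not overlap, and their unadjusted p in edgeR's test lay between 0.0127 and 0.0302. Lack of overlap was not limited to them. Of the 49 assembly factors, 6 had every cKO library above every WT library (4.21% of all genes tested) and 3 had every one below (4.83%). Of 14 electron carriers and other proteins of the inner and outer membrane, 13 were tested, and Usmg5 had no row under that symbol. Of the 13, 11 were positive, the median was 0.07 and 0 passed either threshold. Of 12 transcriptional regulators of respiratory genes and mitochondrial DNA, 4 were positive, the median was -0.02 and 0 passed either threshold. Every cKO library lay above every WT library for 2 of the carriers and 1 of the regulators (4.21% of all genes tested), and below for 0 (4.83%). The median relative length was 0.403 for the assembly factors, 0.420 for the carriers and 1.26 for the regulators, and the median deviation in WT replicate 1 was -0.11, -0.19 and -0.09. Whether these lists differed from the subunits was not tested.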

How the data were processed

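The 6 RNA-seq libraries of E13.5 cortex, 3 WT and 3 cKO, were grouped by title. The estimated counts were deposited by the authors per gene without depth normalisation, and 8.63% of the members' values were not whole. The authors also deposited TPM, which is scaled for transcript length. FPKM and 6 columns of group averages were not used. The submitters' processing notes name HISAT2 2.2.1, Bowtie2 2.4.5 and RSEM 1.3.1 and the builds GRCm38 and mm10; strand use is not given in the sources used here, so overlapping genes and near-identical copies are uncertain.

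Counts were rounded, filtered with filterByExpr (minimum count 10, total 15), scaled by TMM (factors 0.987 to 1.03) and tested with edgeR 4.0.16 (glmQLFit and glmQLFTest, R 4.3.3) on genotype alone. P-values were adjusted by Benjamini-Hochberg over 13340 genes, with a threshold of 0.05. Ratios of isoforms used counts plus 0.5. The p-values take their error from the spread between libraries, which edgeR moderates over all genes tested (prior degrees of freedom 3.92, median total 7.92). Counting floors cover counting error only. The code was tested on simulated data.

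The members and lists were chosen with earlier results of these data known. Named are, per complex, the tested member with the highest TPM and the extremes of log2 fold change, members at an unadjusted p under 0.05 or without overlap of the groups, tissue-restricted isoforms with their partners, members that failed the filter, and pathway genes at an unadjusted p under 0.05. Atp5a1, Atp5b, Atp5g2, Atp5o, Cox5a, Ndufb4, Ndufs1, Ndufs8, Ndufv1 and Uqcrc2 were chosen after their values were seen. Ndufa4 and Ndufa4l2 were counted with complex IV. In the counts and medians 1 member is included that is not reported singly here. Alternatives were RLE factors, no filter, a minimum of 10 counts in each library, limma-voom (limma 3.58.1), DESeq2 1.42.0, limma on log2(TPM + 1), a replicate block, each library or 2 libraries left out, and, added after the data were seen, a length correction (loess, span 0.3). Promoter windows are from RefSeq, and 15 members had none.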

Additional observations from a re-analysis of the deposited data

How the results depend on the processing

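No alternative gave a member an adjusted p under 0.05, and the lowest was 0.481, under the replicate block. The members' median log2 fold change stayed positive, between 0.026 and 0.14 with each library left out in turn, and that of complex I ran from 0.047 to 0.14, II from 0.0074 to 0.16, III from 0.016 to 0.16, IV from 0.013 to 0.16 and V from -0.016 to 0.15. Members higher at an unadjusted p under 0.05 (3) numbered 11 with the replicate block. The share of all genes there was 3.57%, against 1.75% in the main fit. They numbered 8 with limma on log2(TPM + 1) (all genes 1.85%) and 1 with both doubted libraries left out (all genes 0.787%). With 1 left out they numbered 0 to 10 (all genes 0.895% to 4.23%). The number lower (0) was 1 with the replicate block (all genes 4.603%, against 1.81%) and 1 with the length correction (all genes 1.52%). It was 0 to 2 with 1 left out. The 2 arose without WT replicate 1, where 1.58% of all genes were lower at that p. Members with every cKO library above every WT library (9) numbered 18 in TPM, 33 with both left out and 9 to 30 with 1 left out. Those with every cKO library below (0) numbered 0 to 4. With libraries left out, fewer need to be apart, so any gene separates more easily. The shares of all genes in these settings are not given here, so a rise above 9 is not read as a stronger difference. The replicate numbers were not taken as pairs: same-numbered libraries correlated at 0.41, 0.31 and -0.02, and WT replicate 3 correlated best with cKO replicate 2 (0.26).

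Of 448 comparisons of a named gene with an alternative (30 genes, 15 settings), 414 kept their direction and 34 changed sign. No member passed the adjusted threshold in any setting, so that side did not change. The side of an unadjusted p of 0.05 did change for some genes. For example, Cox6a1 passed it with RLE factors, and Cox7a2l and Atp5e with the replicate block. Atp5g1 did not pass it without cKO replicate 3, nor did any member without cKO replicate 2. Ndufa2 was 0.0012 with the replicate block, 0.0022 with limma-voom, 0.057 with both libraries left out and -0.10 to 0.090 with 1 left out. Under the length correction Sdhc was -0.029, Uqcrh -0.013, Uqcrfs1 -0.026, Cox7c -0.027, Atp5md -0.053 and Cox4i1 -0.024, and Atp5md was -0.030 in TPM. With 1 library left out, Sdhc ran from -0.026 to 0.095, Uqcrh from -0.031 to 0.15, Uqcrfs1 from -0.050 to 0.081, Cox7c from -0.058 to 0.098, Atp5md from -0.080 to 0.068, Cox4i1 from -0.037 to 0.11, Cox6b1 from -0.0095 to 0.17, Cox7b from -0.025 to 0.17, Atp5j2 from -0.12 to 0.069 and Ndufa4l2 from -0.29 to 0.32. The difference in the log2 ratio of Ndufa4l2 to Ndufa4 ran from -0.49 to 0.28, and that of Atp5g2 to Atp5g3 from -0.28 to -0.17. The causes were not tested. With 3 libraries per group, a member's log2 fold change was known to a median of 0.23 to either side (95% interval).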
